A study of Mus musculus with 2 samples.

Results

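The 32 genes described here encode chaperones of the endoplasmic reticulum (ER) and components of the unfolded protein response (UPR), and they were chosen by name from a table of 51826 genes. All 32 were found, on 16 chromosomes, and each had a value above 0 in both libraries. The mutant cells were v6.5 mouse embryonic stem (ES) cells labelled T29I, described as cells with an introduced mutation of the PRSS1 gene, and they were set against wild-type (WT) v6.5 cells. Total RNA depleted of ribosomal RNA was sequenced from each in 1 library per genotype. The labels give no clone number, passage, culture medium or further treatment for either genotype, and the strain label, which is the same for both, carries a name other than v6.5. With 1 library per genotype, clone, culture and library preparation cannot be told apart from genotype, and no p-value is given. "Higher" and "lower" therefore describe these libraries only.

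Secreted and membrane proteins are folded in the ER with the help of lumenal chaperones, lectin chaperones that bind N-glycans, and disulfide isomerases. When unfolded proteins accumulate, the sensors IRE1alpha, PERK and ATF6 signal to the nucleus and to the translation machinery, which raises chaperone and degradation capacity and lowers protein synthesis. Mutant trypsinogens, the products of human PRSS1 mutations, are known in pancreatic acinar cells partly for misfolding in the ER, whereas ES cells are not secretory cells.

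Prss1, the mouse gene taken to be the mutated one, was listed at 0 TPM in both libraries, so its level does not check the genotype labels. TPM (transcripts-per-million) is a length-scaled abundance that sums to 1000000 in each library. The estimated depth was 15281662 reads in the T29I library and 16910002 in the WT library. TPM was lower for most genes in the mutant: the median log2 ratio of T29I over WT, on the log2(TPM + 1) scale, was -0.90 over the 9375 genes that averaged 5 TPM or more. This median is called the shift, and log2 ratios are given relative to it unless stated as deposited. The ratios also followed transcript length and GC content, which accounted for 44.9% of their variance over 9100 protein-coding genes, so for each of the 32 genes a value adjusted for both is given too. The 10 ES cell markers were all above 0 and summed to 7652 TPM in the T29I library and 11286 TPM in the WT library. Relative to the shift, 3 of the 10 were lower by 2-fold or more (Zfp42, Nanog and Esrrb) and 1 higher (Utf1). Zfp42 was at 23.3 TPM in the T29I library and 544 TPM in the WT library, and Nanog at 140 and 765 TPM in that order. After adjustment the same 3 were lower by 2-fold or more and 0 were higher, with Utf1 at -0.40. The 10 trophoblast markers summed to 915 TPM in the T29I library and 127 TPM in the WT library. Of 7 measured ones, 5 were higher by 2-fold or more, and Plac1 was at 0 in the WT library. Over all genes that averaged 1 TPM or more, 26.0% were higher and 22.2% lower by 2-fold or more. Most of the T29I sum was Krt8 at 389 TPM and Krt18 at 353 TPM, against 28.6 and 15.4 TPM in the WT library. Hand1 had the largest ratio of the trophoblast markers, at 79.5 TPM in the T29I library and 0.868 TPM in the WT library. Its log2 ratio was 6.32 and, adjusted, 5.03. Ascl2 was at 31.99 TPM in the T29I library and 2.02 TPM in the WT library. The log2 ratio of Ascl2 was 4.35 and, adjusted, 2.55. Tfap2c was at 53.1 TPM in the T29I library and 73.4 TPM in the WT library. Cdx2 was at 0.402 TPM in the T29I library and 0.256 TPM in the WT library. In the same order, Elf5 was at 0.103 and 0.0983 TPM and Eomes at 2.19 and 6.21 TPM. The 12 acinar markers summed to 22.3 TPM in the T29I library and 5.14 TPM in the WT library, with Prss1, Prss2, Cpa1, Amy2a2, Ptf1a and Cel at 0 in both and Ctrb1 at 0 in the WT library alone. The 8 primitive endoderm markers summed to 3.17 TPM in the T29I library and 42.5 TPM in the WT library. Most of the WT sum was Lama1, at 0.588 TPM in the T29I library and 33.8 TPM in the WT library. Sox7 was at 0.184 TPM in the T29I library and 6.02 TPM in the WT library, and each other marker was below 1 TPM in the WT library. The 8 fibroblast markers summed to 161 TPM in the T29I library and 179 TPM in the WT library, with Lum at 0 in both. Most of both sums was Vim, at 139 TPM in the T29I library and 172 TPM in the WT library. Of 4 measured fibroblast markers, 3 were higher by 2-fold or more and 0 lower, or 2 and 0 on the adjusted scale. Thy1 was at 17.6 TPM in the T29I library and 4.57 TPM in the WT library. The part of these other markers in the results below was not tested. In such bulk RNA, fewer cells of a type and less RNA per cell cannot be told apart.

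Many UPR targets share a promoter sequence, the ER stress response element (ERSE), which pairs a CCAAT box bound by NF-Y with a CCACG box bound by ATF6. It is shown first because the members that carry it include Hsp90b1 and Hspa5, the chaperones with the lowest ratios of the list. Promoter windows from RefSeq (GRCm38.p6, 250 bases before to 50 after the annotated start) were held for 27 of the 32 genes; Atf6, Derl1, Hyou1, Manf and Sec61a1 had none. The exact letters CCAAT, then any 9 bases, then CCACG, searched on both strands, were found in 9 of these 27 genes (33.3%), against 0.137% of all 27025 genes with a window. The element was defined on promoters of genes of this family, so its presence here is a description. The matches are printed 5′ to 3′ in the orientation of the motif, with the CCAAT and CCACG boxes in capitals.
Hspa5: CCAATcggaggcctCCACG
Hsp90b1, farther from the start: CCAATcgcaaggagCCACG
Hsp90b1, nearer to the start: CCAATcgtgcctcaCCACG
Calr: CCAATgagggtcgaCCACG
Canx: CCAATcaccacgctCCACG
Pdia6: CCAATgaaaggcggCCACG
Dnajc3: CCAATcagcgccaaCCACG
Creld2: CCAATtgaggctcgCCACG
Derl3: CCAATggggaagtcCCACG
Syvn1: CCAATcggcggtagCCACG
The variant ERSE-II, searched as ATTGG, any 1 base and CCACG on both strands, was present in Herpud1 and Dnajb11, against 0.0444% of all genes with a window.
Herpud1: ATTGGGCCACG
Dnajb11: ATTGGCCCACG
The UPR element TGACGTGG, bound by XBP1, was found in 0 of the 27 genes and in 0.714% of all genes. The 9-letter amino acid response element TGATGNAAN was found in Herpud1 alone among the 27, and in 4.50% of all genes.

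The windows of Hspa5, Hsp90b1 and Calr are printed in full, on the strand of the gene and with the ERSE boxes in capitals, because these 3 abundant chaperones carry the element and differed widely in their ratios. Matches on the opposite strand appear as the reverse complement.
Hspa5, chr2:34771840-34772139, + strand: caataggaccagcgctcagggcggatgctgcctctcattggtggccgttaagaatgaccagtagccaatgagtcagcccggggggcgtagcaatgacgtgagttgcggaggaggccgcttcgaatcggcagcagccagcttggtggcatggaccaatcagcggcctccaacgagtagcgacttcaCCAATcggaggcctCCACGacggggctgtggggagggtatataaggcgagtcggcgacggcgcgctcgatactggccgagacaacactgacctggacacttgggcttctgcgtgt
Hsp90b1, chr10:86705395-86705694, - strand: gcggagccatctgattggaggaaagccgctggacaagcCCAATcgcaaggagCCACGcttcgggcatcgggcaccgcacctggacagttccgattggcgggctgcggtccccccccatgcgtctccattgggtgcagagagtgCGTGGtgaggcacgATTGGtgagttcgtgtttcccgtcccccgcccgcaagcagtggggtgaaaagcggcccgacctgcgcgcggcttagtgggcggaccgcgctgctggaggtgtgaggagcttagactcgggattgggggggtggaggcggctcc
Calr, chr8:84846882-84847181, - strand: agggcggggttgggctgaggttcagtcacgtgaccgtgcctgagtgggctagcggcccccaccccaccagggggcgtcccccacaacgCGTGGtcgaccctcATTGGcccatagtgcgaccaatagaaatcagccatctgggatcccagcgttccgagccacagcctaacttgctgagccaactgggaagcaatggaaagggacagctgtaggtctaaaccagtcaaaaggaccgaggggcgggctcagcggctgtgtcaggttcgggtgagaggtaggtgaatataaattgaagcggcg

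The 32 genes went in both directions relative to the rest of the transcriptome, and their median was near that of all genes. Relative to the shift, 6 of 32 were higher by 2-fold or more in the T29I library, against 26.0% of the 12943 genes that averaged 1 TPM or more. In the other direction 4 of 32 were lower by 2-fold or more, against 22.2% of all genes. Both shares, 18.8% and 12.5%, lay below the background, and the list median was 0.0042, against 0.055 for all genes. The 6 higher genes were Xbp1, Derl3, P4hb, Sdf2l1, Sec61a1 and Manf, and the 4 lower ones were Hsp90b1, Atf6, Hspa5 and Dnajc3. As deposited, 1 was higher by 2-fold or more (background 9.97%) and 15 were lower by 2-fold or more (background 45.7%). After adjustment for length and GC content, 4 were higher (background 17.6%) and 3 lower (background 15.5%). Of the 10 genes past 2-fold relative to the shift, Hsp90b1, P4hb, Xbp1 and Sec61a1 were also past it after adjustment, in the same direction. Summed over the 32 genes, the list took 2810 TPM in the T29I library and 4313 TPM in the WT library, which is 0.281% of all TPM in the T29I library and 0.431% in the WT library.

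**Figure D1:**
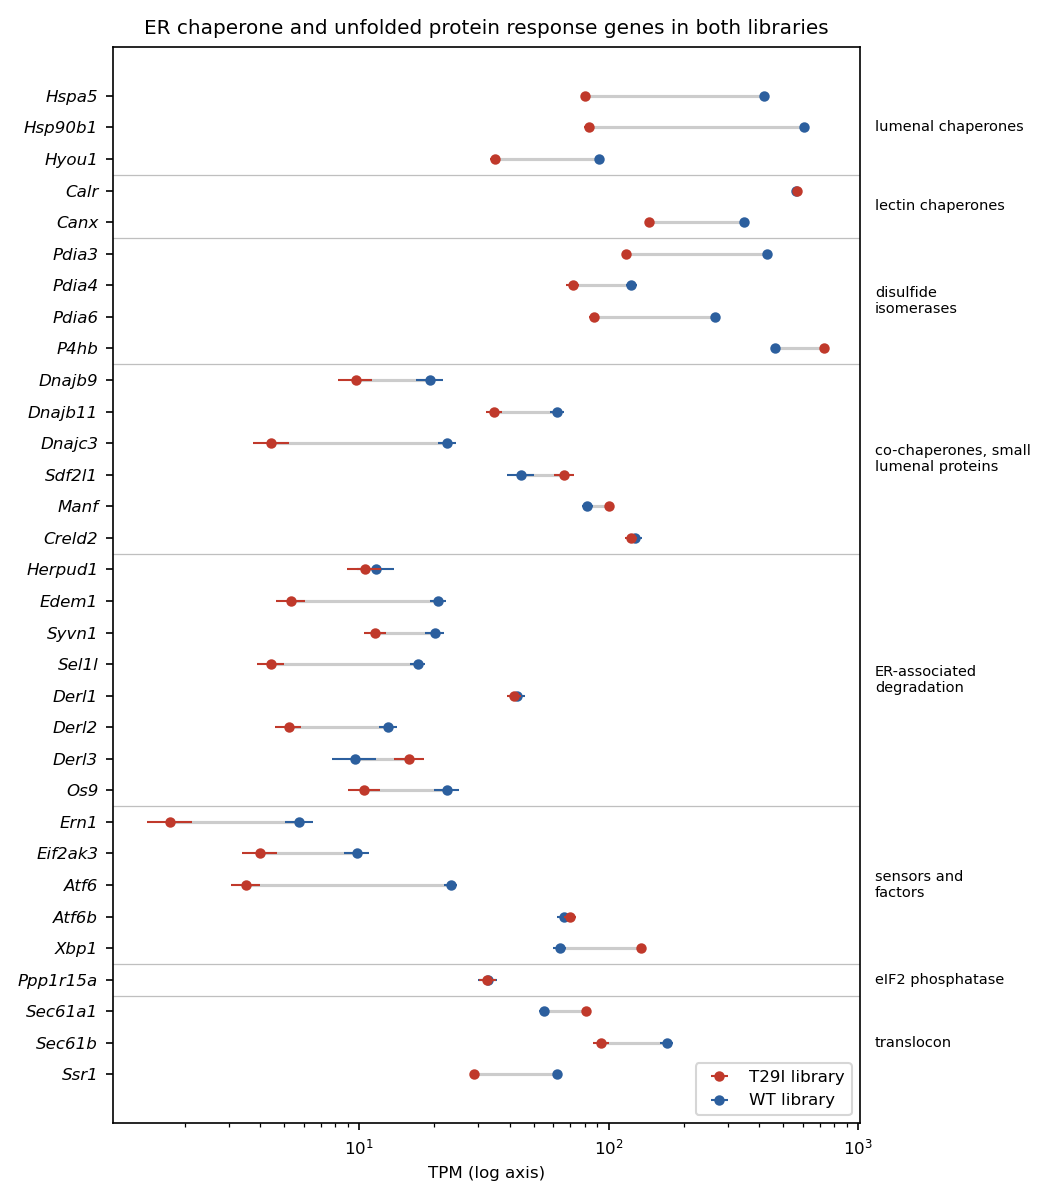
TPM (horizontal log axis) of each of the 32 genes in the T29I library (red) and the WT library (blue), grouped by role, with 95% counting intervals that cover counting error only. Hspa5, Hsp90b1, Pdia3 and Atf6 lie far to the left in the T29I library, while P4hb, Xbp1, Sec61a1, Manf, Sdf2l1 and Derl3 lie to the right.

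The lumenal chaperones were lower in the T29I library, with Hsp90b1 the lowest ratio of the list relative to the shift. Hsp90b1 (ENSMUSG00000020048) encodes GRP94, the ER member of the HSP90 family, and is annotated on chromosome 10 from 86690209 to 86705509, - strand (GRCm38, GENCODE M21). It was at 82.9 TPM in the T29I library (79.5 to 86.5 as the 95% counting interval) and 607 TPM in the WT library (597 to 618), 7.32-fold lower as deposited. Its log2 ratio was -1.96 relative to the shift and, adjusted, -1.36. The intervals were far apart, and Hsp90b1 was the only gene that stayed lower by 2-fold or more on each of the 10 scales and settings tried. Those that changed the filter alone leave the ratio of a gene as it was, so they could not move it. A short transcript gene on the same strand, Gm15344, shares 84 exon bases with it and was at 0 TPM in the T29I library and 10.5 TPM in the WT library, an estimated 23 reads against 12707 for Hsp90b1 in the WT library.

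Hspa5 (ENSMUSG00000026864) encodes BiP, the ER HSP70 that binds unfolded chains and holds the stress sensors inactive, and is annotated on chromosome 2 from 34771970 to 34777547, + strand. It was at 80.6 TPM in the T29I library (77.3 to 84.0) and 419 TPM in the WT library (410 to 427), 5.19-fold lower as deposited. Its log2 ratio was -1.47 relative to the shift and, adjusted, -0.97, just short of 2-fold. Hyou1, an ER HSP110 that exchanges the nucleotide of BiP, was at 34.9 TPM in the T29I library and 91.1 TPM in the WT library, with a log2 ratio of -0.46 and an adjusted one of -0.16. All 3 lumenal chaperones thus had a ratio below 0 on each of these scales, and their sum was 198 TPM in the T29I library and 1117 TPM in the WT library.

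The lectin chaperones calreticulin and calnexin, which hold glycoproteins until they are folded, differed from each other. Calr, the soluble one, was at 568 TPM in the T29I library (557 to 579) and 560.3 TPM in the WT library (548 to 572). Its counting intervals overlapped as deposited, and its log2 ratio was 0.91 relative to the shift and, adjusted, 0.58. Canx, the membrane-bound one, was at 144 TPM in the T29I library and 347 TPM in the WT library, with a log2 ratio of -0.36 and an adjusted one of 0.50. Ratios between genes of 1 library do not depend on the scaling of that library, although they keep any length or GC difference. The TPM of Calr was 7.05 times that of Hspa5 in the T29I library and 1.34 times in the WT library. It was 3.93 times that of Canx in the T29I library and 1.62 times in the WT library.

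Among the disulfide isomerases P4hb went against Pdia3 and Pdia6. P4hb (ENSMUSG00000025130, chromosome 11 from 120560298 to 120573253, - strand) encodes the founding protein disulfide isomerase and was at 731 TPM in the T29I library (719 to 743) and 464 TPM in the WT library (453 to 475). Its log2 ratio was 1.55 relative to the shift, 1.04 after adjustment and 0.66 as deposited. P4hb was thus the most abundant of the 32 genes in the T29I library and the third in order in the WT library, where Hsp90b1 was first. Pdia3, which encodes ERp57, the partner of calnexin and calreticulin, was at 118 TPM in the T29I library (113 to 122) and 431 TPM in the WT library (421 to 441), with a log2 ratio of -0.97. Pdia6 was at 87.3 TPM in the T29I library and 267 TPM in the WT library, with a log2 ratio of -0.71. Both lay below 0 after adjustment too, at -0.83 and -0.94, and neither reached 2-fold on these 2 scales, although both passed it as deposited, at -1.86 and -1.60. Pdia4, an isomerase that also binds BiP, was at 71.6 TPM in the T29I library and 123 TPM in the WT library, with a log2 ratio of 0.12 and an adjusted one of 0.09. The TPM of Pdia3 was 0.161 times that of P4hb in the T29I library and 0.929 times in the WT library.

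The 9 chaperones and isomerases named so far held 68.3% of the summed TPM of the list in the T29I library and 76.7% in the WT library. P4hb and Calr together held 46.2% in the T29I library and 23.7% in the WT library. Without them the other members summed to 1511 TPM in the T29I library and 3289 TPM in the WT library. Among the 32, Hspa5 was in place 12 by TPM in the T29I library and in place 5 in the WT library, and Xbp1 in place 4 in the T29I library and in place 14 in the WT library. Calr was in place 2 in both libraries and Ern1 in place 32 in both.

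The co-chaperones and small lumenal proteins went in both directions. Dnajc3 encodes p58IPK, a J-domain co-chaperone of BiP. It was at 4.43 TPM in the T29I library (3.77 to 5.21) and 22.5 TPM in the WT library (20.8 to 24.4), with a log2 ratio of -1.22 that came to -0.21 after adjustment. Dnajb9, another J-domain partner of BiP that restrains IRE1alpha, was at 9.68 TPM in the T29I library and 19.1 TPM in the WT library, with a log2 ratio of -0.02 and an adjusted one of 0.49. Dnajb11, which delivers unfolded proteins to BiP, was at 34.7 TPM in the T29I library and 62.1 TPM in the WT library, with a log2 ratio of 0.07 and an adjusted one of -0.21. Of the 3 J-domain genes Dnajc3 alone was past 2-fold relative to the shift, and after adjustment none was.

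Manf, a secreted ER stress protein that binds BiP, was at 101 TPM in the T29I library (96.5 to 105) and 82.0 TPM in the WT library (77.9 to 86.3), with a log2 ratio of 1.19 and an adjusted one of 0.76. The opposite-strand gene Vprbp shares 146 exon bases with Manf and was at 5.89 TPM in the T29I library and 65.7 TPM in the WT library. Sdf2l1, which works with the J-domain proteins at BiP, was at 66.1 TPM in the T29I library and 44.5 TPM in the WT library. Its log2 ratio of 1.46 was -0.12 after adjustment, so its direction did not hold. Creld2, a lumenal isomerase-like protein and UPR target, was at 123 TPM in the T29I library and 128 TPM in the WT library, with overlapping intervals of 116 to 130 in the T29I library and 119 to 136 in the WT library. Its log2 ratio was 0.84 relative to the shift and, adjusted, -0.36.

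Genes of ER-associated degradation (ERAD), which returns misfolded proteins to the cytosol for the proteasome, went in both directions. Relative to the shift, 1 of 8 genes was higher by 2-fold or more and 0 lower, against 26.0% and 22.2% of all genes, and the median was 0.0070. On the adjusted scale 0 were higher and 1 was lower, against 17.6% and 15.5%. Derl3, a derlin of secretory tissues, was the higher one, at 15.9 TPM in the T29I library (13.8 to 18.2) and 9.57 TPM in the WT library (7.78 to 11.7), and its log2 ratio of 1.57 came to -0.01 after adjustment. Derl1 was at 41.7 TPM in the T29I library and 42.9 TPM in the WT library, with overlapping intervals and log2 ratios of 0.86 and, adjusted, 0.91. Derl2 was at 5.21 TPM in the T29I library and 13.1 TPM in the WT library, with a log2 ratio of -0.28 and an adjusted one of 0.56, and it shares 231 exon bases with the opposite-strand gene Mis12. The order of the 3 derlins, membrane proteins of the retrotranslocation channel, depended on the scale: Derl3 was the highest relative to the shift and the lowest after adjustment.

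Syvn1, the ubiquitin ligase HRD1, was at 11.5 TPM in the T29I library and 20.1 TPM in the WT library, with a log2 ratio of 0.15 and an adjusted one of -0.26. The opposite-strand gene Mrpl49 shares 91 exon bases with Syvn1 and was at 91.2 TPM in the T29I library and 135 TPM in the WT library. Sel1l, the adaptor of Syvn1, was at 4.42 TPM in the T29I library and 17.1 TPM in the WT library, with a log2 ratio of -0.85. Edem1, which delivers glycoproteins for degradation, was at 5.30 TPM in the T29I library and 20.6 TPM in the WT library, with a log2 ratio of -0.88. Sel1l and Edem1 have long transcripts, and both ratios came to 0.17 after adjustment. Os9, a lectin of the same complex, was at 10.5 TPM in the T29I library and 22.4 TPM in the WT library, and its log2 ratio of -0.13 came to -1.07 after adjustment. Herpud1, a membrane scaffold of the ligase complex and a UPR target, was at 10.5 TPM in the T29I library (8.95 to 12.3) and 11.6 TPM in the WT library (9.80 to 13.7), with overlapping intervals. The log2 ratio of Herpud1 was 0.76 relative to the shift and, adjusted, 0.0092.

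The stress sensors Ern1 and Eif2ak3 were below 10 TPM in both libraries, and Atf6 in the T29I library alone. The transcription factor Xbp1 stood apart from these sensors. Ern1, which encodes IRE1alpha, was at 1.74 TPM in the T29I library (1.41 to 2.13) and 5.73 TPM in the WT library (5.03 to 6.49), with a log2 ratio of -0.40. Eif2ak3, which encodes PERK, was at 3.99 TPM in the T29I library and 9.80 TPM in the WT library, with a log2 ratio of -0.22. Both had lower TPM in the T29I library but stayed within 2-fold of the shift, and their adjusted ratios were 0.56 and 0.07. Atf6, a sensor that is cut in the Golgi to release a transcription factor, was at 3.51 TPM in the T29I library (3.05 to 4.01) and 23.3 TPM in the WT library (21.9 to 24.7). Its log2 ratio was -1.53 relative to the shift and, adjusted, -0.21, with a longest transcript of 7246 bases. Its relative Atf6b was at 69.7 TPM in the T29I library and 66.1 TPM in the WT library, with overlapping intervals of 65.9 to 73.7 in the T29I library and 62.0 to 70.4 in the WT library. The log2 ratio of Atf6b was 0.97 relative to the shift and, adjusted, -0.49. The TPM of Atf6b was 19.9 times that of Atf6 in the T29I library and 2.84 times in the WT library.

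Xbp1 (ENSMUSG00000020484, chromosome 11 from 5520659 to 5525893, + strand) encodes the transcription factor whose mRNA IRE1alpha splices. It was at 134 TPM in the T29I library (129 to 139) and 63.6 TPM in the WT library (59.9 to 67.6), the one member higher by 2-fold or more as deposited. Its log2 ratio was 1.07 as deposited, 1.96 relative to the shift and, adjusted, 1.28. Xbp1 was higher by 2-fold or more on each of the 10 scales and settings tried, of which the filter settings could not change its ratio. The values are per gene, so the spliced and unspliced forms of Xbp1 are not separated. Ppp1r15a, which encodes GADD34, the stress-induced subunit of the phosphatase that reverses PERK signalling, was at 32.6 TPM in the T29I library (30.1 to 35.2) and 32.8 TPM in the WT library (30.0 to 35.8). Its intervals overlapped almost fully as deposited, and its log2 ratio was 0.89 relative to the shift and, adjusted, 0.14.

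The translocon genes, which form the channel through which chains enter the ER, had unlike ratios. Sec61a1, the channel subunit, was at 80.9 TPM in the T29I library (78.3 to 83.6) and 55.1 TPM in the WT library (52.6 to 57.6), with a log2 ratio of 1.44 and an adjusted one of 1.03. The antisense gene Gm44170 lies wholly within the exons of Sec61a1 over 549 bases, and it was at 111 TPM in the T29I library and 0 TPM in the WT library. Reads of Gm44170 in the mutant were estimated at 402, against 3598 for Sec61a1, and the sources used here do not state whether counting used strand. Sec61b, a small subunit of the channel, was at 93.1 TPM in the T29I library and 171 TPM in the WT library, with a log2 ratio of 0.03 that came to -1.60 after adjustment. Ssr1, a subunit of the translocon-associated protein complex, was at 28.95 TPM in the T29I library and 62.2 TPM in the WT library, with a log2 ratio of -0.18 that came to 1.61 after adjustment. Sec61b, at 723 bases, has the shortest longest transcript of the list and Ssr1, at 9333 bases, the longest, so both adjusted values lie at the ends of the length range.

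**Figure D2:**
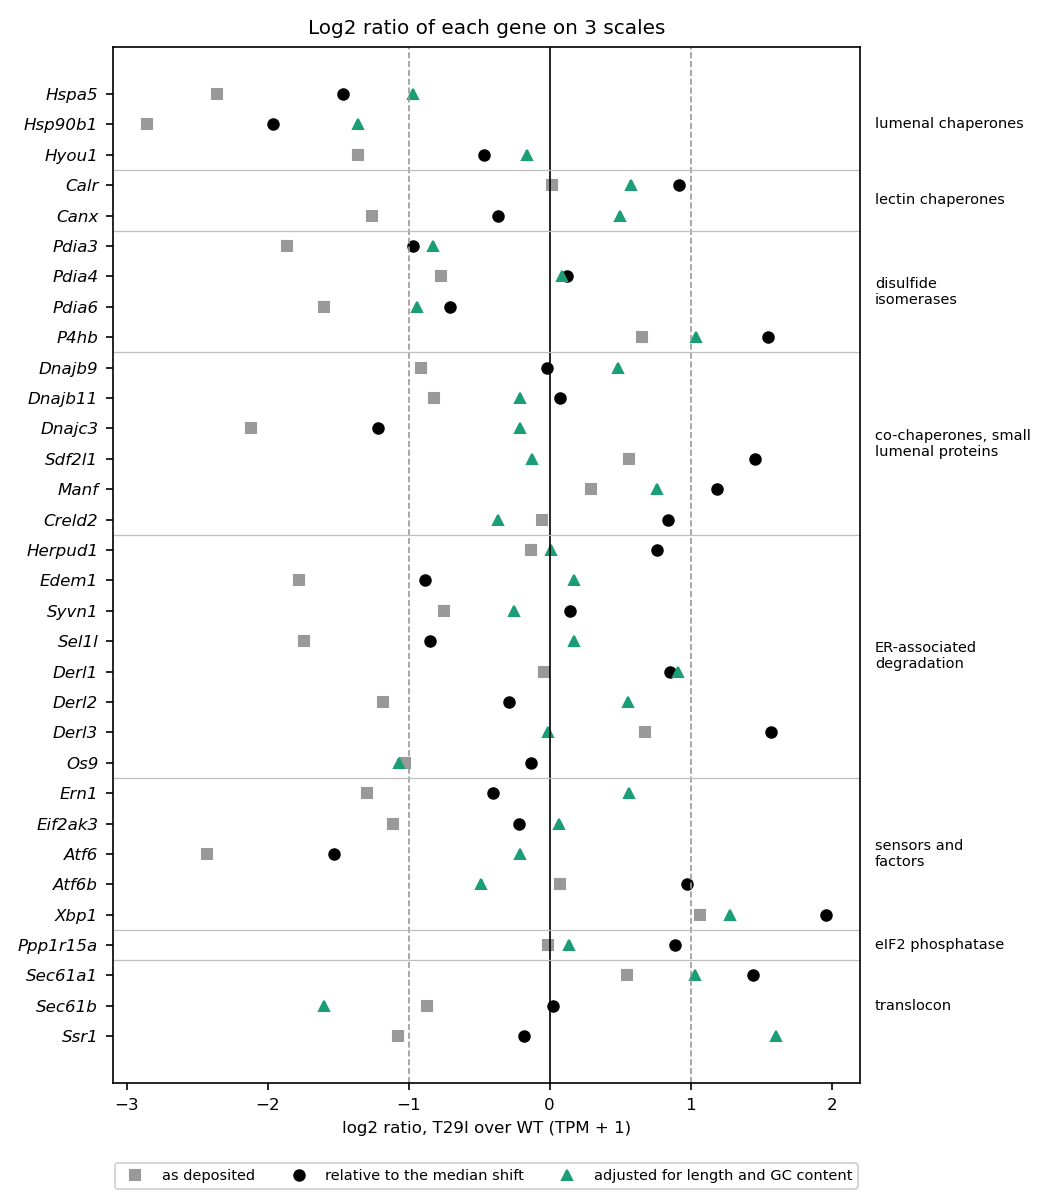
Log2 ratio of T29I over WT (horizontal axis, TPM + 1) of each of the 32 genes, as deposited (squares), relative to the median shift (circles) and adjusted for length and GC content (triangles), with dashed lines at a 2-fold difference. Hsp90b1 lies below -1 and Xbp1 above 1 on all 3 scales. From circle to triangle, Sec61b, Ssr1, Sdf2l1, Derl3, Atf6, Atf6b, Creld2, Edem1, Sel1l and Dnajc3 each move by more than 2-fold.

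The lowest and highest ratios of the list were set beside transcript length and GC content. Protein-coding genes were divided by length and by GC content into 5 classes of equal number. The 4 members in the shortest class had a log2 ratio of 1.15 as their median, against 1.16 for the 1820 genes of that class. The 6 members in the longest class had a median of -0.87, against -1.16 for the 1819 genes there. The classes between did not fall steadily in the members: from the shorter to the longer, their medians were 0.44, 0.86 and -0.28, against 0.57, 0.09 and -0.39 for all genes of those classes. In the lowest class by GC content the 5 members had a median of -0.36, against -0.88 for all genes, and in the highest class the 6 members had 0.56, against 1.23. From the lower to the higher of the classes between, the members had -0.88, 0.07 and 0.89, against -0.70, -0.06 and 0.72. Of the 32 members, 17 had the same sign before and after adjustment. Hsp90b1, with a longest transcript of 3222 bases and 42.1% GC, and P4hb, with 2861 bases and 53.8% GC, compare with medians of 3174 bases and 50.2% GC over those protein-coding genes.

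**Figure D3:**
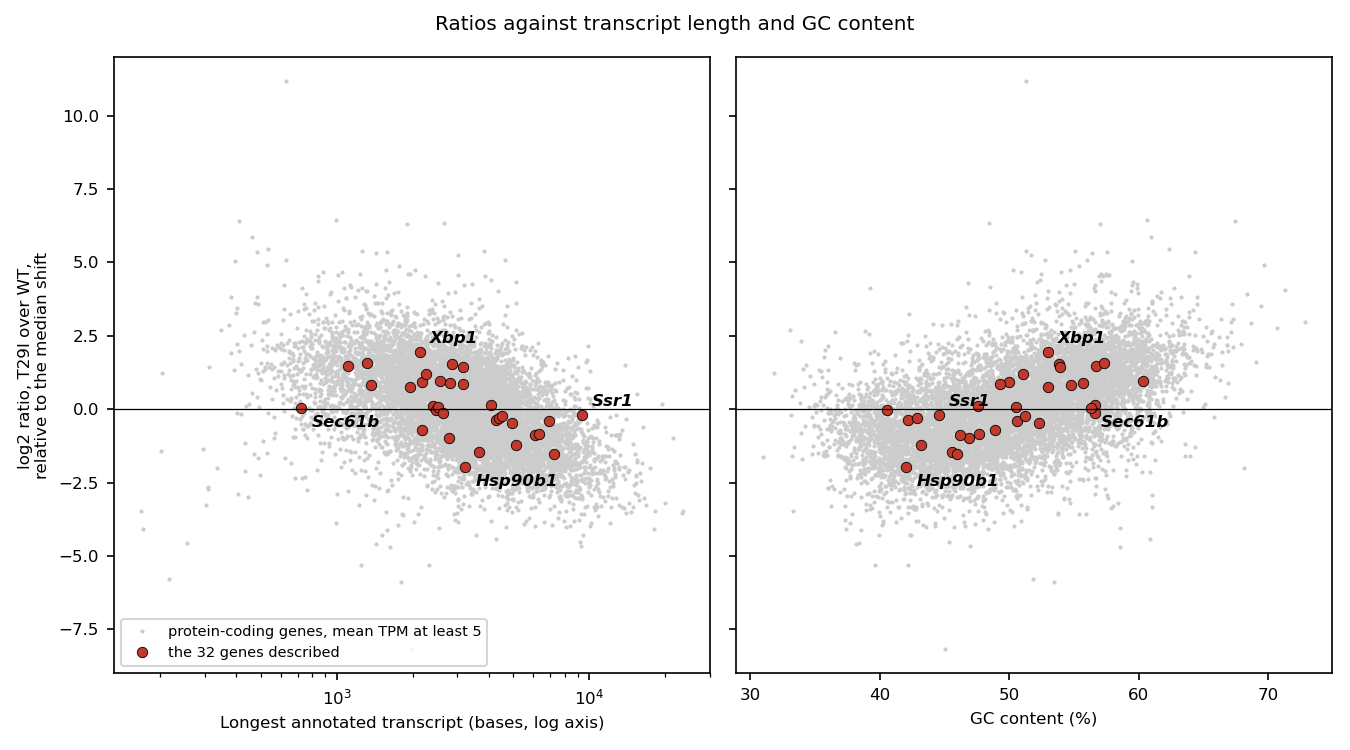
Log2 ratio of T29I over WT relative to the median shift (vertical axis) against the length of the longest annotated transcript (left, log axis) and its GC content in percent (right), for protein-coding genes that averaged 5 TPM or more (grey) and the 32 genes described (red). The grey cloud falls with length and rises with GC content, the red points lie within it, and Hsp90b1 at -1.96 and Xbp1 at 1.96 are the lowest and highest of them.

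By promoter sequence, the 9 genes with an ERSE had log2 ratios from -1.96 to 1.57, with a median of -0.36 relative to the shift and, adjusted, -0.26. Among these 9, Hspa5, Hsp90b1 and Dnajc3 were lower by 2-fold or more and Derl3 was higher by 2-fold or more, which is 3 and 1 of 9 against 22.2% and 26.0% of all genes. The 18 genes whose window held no exact match had 0.0042 as their median relative to the shift and, adjusted, 0.11. Of these 18, 0 were lower by 2-fold or more and 3 higher by 2-fold or more. Herpud1 and Dnajb11, which hold the variant ERSE-II, are among the 18. Genes without a window are in neither group, among them Atf6, lower by 2-fold or more, and Manf and Sec61a1, higher by 2-fold or more. The windows printed above for Hspa5, Hsp90b1 and Calr all hold the element, while the ratios of the 3 genes were -1.47, -1.96 and 0.91. After adjustment 1 of the 9 was lower (Hsp90b1) and 0 higher, and of the 18 without a match 2 were lower (Os9 and Sec61b) and 3 higher, against 15.5% lower and 17.6% higher over all genes. The counts thus depended on the scale. These are descriptions of single libraries, and no difference between genes with and without an exact ERSE match was tested.

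Genes of the same pathway outside the 32 were described from 6 further lists, with the background of all genes beside them. Of 125 measured genes 41 were higher by 2-fold or more and 20 lower by 2-fold or more relative to the shift, and the median was 0.46, against 26.0% and 22.2% and a median of 0.055 over all genes. The adjusted ratios gave 22 higher and 6 lower genes and a median of 0.25, against 17.6% higher, 15.5% lower and a median of 0.040 over all genes. On this scale the share of higher genes was that of the background, while the share of lower genes was below it and the median above that of all genes.

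Among other ER folding enzymes 9 of 25 were higher and 3 lower (median 0.74), against 26.0% and 22.2% of all genes. On the adjusted scale these were 5 and 1 (median 0.51), against 17.6% and 15.5%. Sil1, a nucleotide exchange factor of BiP, was at 28.0 TPM in the T29I library and 8.52 TPM in the WT library, and Fkbp11, a prolyl isomerase, at 103 TPM in the T29I library and 61.4 TPM in the WT library. Dnajc10, a disulfide reductase with a J domain, was at 6.56 TPM in the T29I library and 58.2 TPM in the WT library. Ero1l, an oxidase that recharges P4hb, was at 9.64 TPM in the T29I library and 67.6 TPM in the WT library. P4hb was thus higher and Ero1l lower in the T29I library, with log2 ratios of 1.55 and -1.79 and adjusted ones of 1.04 and -0.88. Other genes of this list differed from Ero1l. Ero1lb had a log2 ratio of -0.54 and an adjusted one of 0.20, and Prdx4 had 1.34 and, adjusted, 1.00.

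Of 17 genes of N-glycan processing 8 were higher and 2 lower (median 0.10), against 26.0% and 22.2% of all genes. On the adjusted scale these were 4 and 0 (median 0.06), against 17.6% and 15.5%. Krtcap2, a subunit of the oligosaccharyltransferase, was at 153 TPM in the T29I library and 58.5 TPM in the WT library, and Mogs, the first glucosidase, at 39.6 TPM in the T29I library and 18.3 TPM in the WT library. Uggt1, the folding sensor that sends glycoproteins back to calnexin and calreticulin, was at 6.51 TPM in the T29I library and 38.5 TPM in the WT library, but its log2 ratio of -1.50 came to 0.0065 after adjustment. Lman1, a cargo receptor, was at 13.2 TPM in the T29I library and 60.8 TPM in the WT library. In this list the lower genes were thus no longer past 2-fold after adjustment, where 4 were higher and 0 lower.

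Of 21 other ERAD genes 7 were higher and 3 lower (median 0.07), against 26.0% and 22.2% of all genes. On the adjusted scale these were 3 and 0 (median 0.25), against 17.6% and 15.5%. Edem2, a mannosidase-like relative of Edem1, was at 28.6 TPM in the T29I library and 12.6 TPM in the WT library, while Edem3 was at 2.73 TPM in the T29I library and 26.6 TPM in the WT library. The log2 ratios of the 3 Edem genes were 2.01 for Edem2, -0.88 for Edem1 and -1.99 for Edem3. Adjusted, they were 1.35 for Edem2, 0.17 for Edem1 and -0.74 for Edem3, so Edem2 alone stayed past 2-fold. Aup1, an ERAD factor at lipid droplets, was at 49.7 TPM in the T29I library and 21.9 TPM in the WT library, and Ubxn4, a recruiter of the p97 ATPase, at 7.47 TPM in the T29I library and 34.5 TPM in the WT library. Of 21 other translocation genes 2 were higher and 4 lower (median -0.04), against the same 26.0% and 22.2% of all genes. On the adjusted scale these were 3 and 0 (median -0.20), against 17.6% and 15.5%. Sec62, which assists the channel, was at 7.77 TPM in the T29I library and 45.6 TPM in the WT library. Its partner Sec63 was at 2.64 TPM in the T29I library and 19.3 TPM in the WT library. Ssr4, in the same complex as Ssr1, was at 41.7 TPM in the T29I library and 25.7 TPM in the WT library, and Srprb, a subunit of the signal recognition particle receptor, at 42.5 TPM in the T29I library and 26.7 TPM in the WT library.

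Genes of the integrated stress response, which PERK and other kinases start by phosphorylating eIF2alpha, held the largest ratios of these lists. Of 22 measured genes 9 were higher and 4 lower (median 0.54), against 26.0% and 22.2% of all genes. After adjustment 5 were higher and 2 lower (median 0.15), against 17.6% and 15.5% of all genes. Ddit4, an inhibitor of mTORC1 that also responds to hypoxia, was at 368 TPM in the T29I library and 42.5 TPM in the WT library, and Chac1, a glutathione-degrading enzyme, at 32.1 TPM in the T29I library and 5.06 TPM in the WT library. Ppp1r15b, the constitutive counterpart of Ppp1r15a, was at 11.7 TPM in the T29I library and 64.5 TPM in the WT library, with log2 ratios of -1.47 and, adjusted, -0.70. Eif2ak2, the double-stranded RNA sensor PKR, was at 0.237 TPM in the T29I library and 14.3 TPM in the WT library. Of the 19 measured other UPR regulators 6 were higher and 4 lower (median 0.63), or 2 and 3 on the adjusted scale (median 0.10). Bak1, a mitochondrial death effector that also binds IRE1alpha, was at 115 TPM in the T29I library and 79.5 TPM in the WT library. Its relative Bax was at 613 TPM in the T29I library and 435 TPM in the WT library. The adjusted log2 ratio of Bax was -1.33, against 1.39 relative to the shift. Nfya, a subunit of the NF-Y factor that binds the CCAAT box of the ERSE, was at 4.2 TPM in the T29I library and 24.1 TPM in the WT library, with log2 ratios of -1.38 and, adjusted, -1.30. Bfar, a ubiquitin ligase of the ER membrane, was at 2.21 TPM in the T29I library and 13.6 TPM in the WT library.

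Heat shock chaperones outside the ER, most of the cytosol but with the mitochondrial Hspd1 and Hspe1 among them, were set beside the ER list. Of 20 genes 2 were higher and 2 lower relative to the shift, against 26.0% and 22.2% of all genes, and the median was 0.12. On the adjusted scale 1 was higher and 4 lower, against 17.6% and 15.5%, and the median was -0.17. Hsp90aa1, a cytosolic relative of Hsp90b1, was at 804 TPM in the T29I library and 3747 TPM in the WT library, with log2 ratios of -1.32 and, adjusted, -0.81. Hspd1, the mitochondrial HSP60, was at 349 TPM in the T29I library and 1478 TPM in the WT library. Cct2, a subunit of the cytosolic chaperonin, was at 950.4 TPM in the T29I library and 864 TPM in the WT library, and Hsf1, the heat shock transcription factor, at 59.9 TPM in the T29I library and 50.2 TPM in the WT library.

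**Figure D4:**
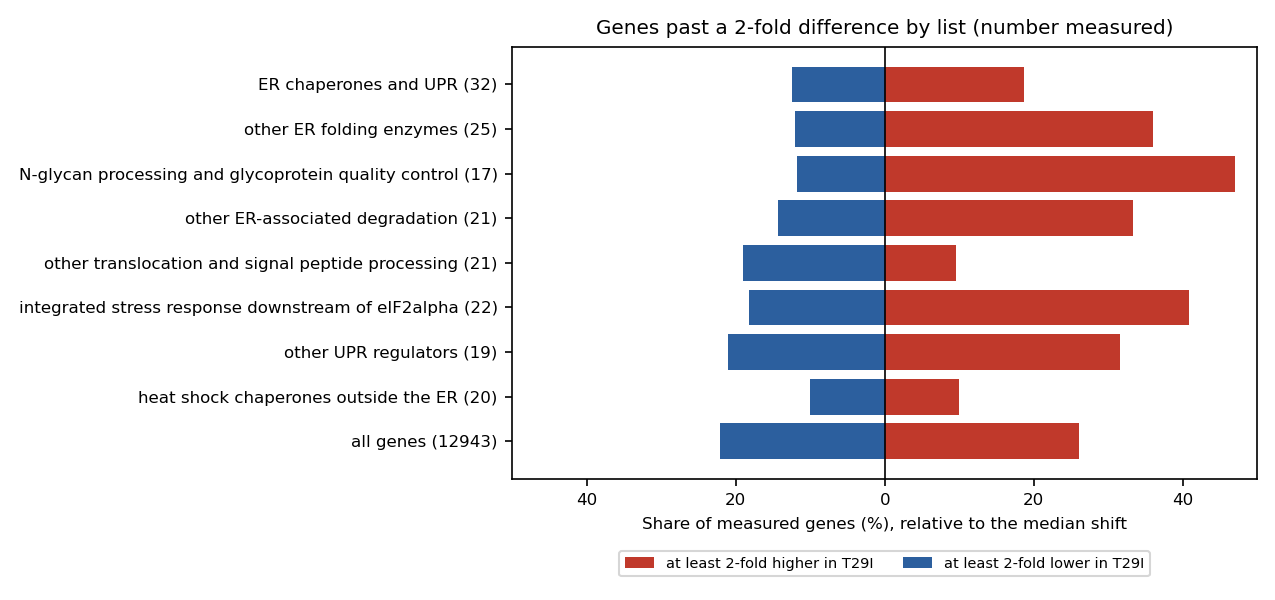
Share of measured genes (horizontal axis, %) higher by 2-fold or more (right, red) or lower (left, blue) in the T29I library relative to the median shift, for the 32 genes, 7 further lists and all 12943 genes, with the number measured in brackets. The 32 genes lie below the all-gene shares of 26.0% higher and 22.2% lower in both directions.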

How the data were processed

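Per the labels' protocols, Isogen was used to extract total RNA, and the stranded TruSeq total RNA chemistry with Ribo-Zero depletion to make libraries. The authors deposited 1 table with a TPM value per gene and library, and each column summed to 1000000. The sources used here name no aligner, counting tool, build or annotation. Columns were assigned through the sample descriptions and groups through the genotype labels.

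Identifiers were matched to GENCODE M21 (GRCm38), with 51633 of 51826 matched. TPM times merged exon length, divided by the value of 1 read, was whole within 0.05 for 79.9% of values in the T29I library and 81.0% in the WT library, and for 26 and 25 of the 32 members. The value of 1 read was taken as the commonest low product of TPM and length. The 95% exact Poisson intervals rest on these estimated reads, and they cover counting error only and not the spread between cultures. Reads were not whole for Dnajc3, Creld2, Syvn1, Derl1, Eif2ak3 and Ssr1 in both libraries and for Atf6 in the WT library, so their intervals are approximate.

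The log2 ratio was log2((T29I TPM + 1)/(WT TPM + 1)), which understates differences of low genes, and genes had to average 1 TPM or more. The size rule was 2-fold relative to the median shift. The adjusted value is the residual of a quadratic fit on GC content and log2 length of the longest transcript, which also removes true differences that follow either property. The cells may express a shorter transcript than the longest annotated. No count test was run, since 1 library per group leaves no spread. Scripts used Python 3.11.15, numpy, pandas and scipy and were tested on simulated data.

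All 32 members are named, and of each further list the 2 genes at either end of the ratios, from those that averaged 5 TPM or more. Ero1lb and Prdx4 are named in addition, beside Ero1l. Members and lists were chosen with earlier results of these data known. Alternatives changed the pseudocount, filter, scaling, shift and adjustment.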

Additional observations from a re-analysis of the deposited data

How the results depend on the processing

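No paired analysis was possible because each genotype has 1 library, and for the same reason no replicate could be left out. The 32 genes had 6 at least 2-fold higher, 4 at least 2-fold lower and a median log2 ratio of 0.0042 relative to the shift. As deposited, with no shift subtracted, these were 1, 15 and -0.89, and after rescaling without mitochondrial and the most abundant genes 1, 12 and -0.72. With the shift taken over protein-coding genes of at least 50 TPM they were 3, 8 and -0.51. With merged exon length in the adjustment, an alternative chosen after seeing the data, 3 genes were higher. Pseudocounts of 0.1 and 5, no filter and a filter of 10 TPM gave 5 to 7 higher and 4 or 5 lower genes, and the planned length and GC adjustment gave 4 and 3, with a median of 0.04. The ratio of Sdf2l1 reversed to -0.12 after adjustment and to -0.15 with merged exon length, and that of Derl3 reversed to -0.014 after adjustment; the cause was not tested. Over the 10 settings, 8 members stayed below 0, 5 stayed above 0 and 19 changed sign. The filter settings select genes and leave each ratio unchanged, so they add nothing to these counts. Depth was not limiting for counting error, since the lowest read estimates of any member were 94 in the T29I library and 99 in the WT library, but 1 library per genotype leaves the spread between cultures unknown.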
